A study of Mus musculus with 55 samples.

Results

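The genes described here are 8 named regulators of stored maternal mRNA, Zar1, Zar1l, Ybx2, Lsm14b, Patl2, Cpeb1, Dazl and Eif4e1b, chosen by name and followed in every oocyte library. They are 8 of 51734 genes in the count files, and all 8 passed the filter on low counts, so none was lost. The libraries are RNA-seq of single mouse oocytes, 42 fully grown oocytes (FGOs, the arrested stage at the end of growth) and 10 metaphase II (MII) oocytes, the mature eggs. The study asked what the ADD domains of the DNA methyltransferase DNMT3A and its cofactor DNMT3L, which read histone H3 tails, do in germ cells. Here the question is narrower, namely how the levels of the 8 mRNAs stood by genotype and from FGO to MII.

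The FGO groups were 18 wild-type oocytes, 8 from females with both Dnmt3L copies carrying the D124A substitution (labelled Dnmt3a+/+Dnmt3LD124A/D124A), 8 from females with both Dnmt3a copies mutated (Dnmt3aADA/ADADnmt3L+/+), and 8 with both genes mutated. They are called Dnmt3L ADD/ADD, Dnmt3a ADD/ADD and the double mutant below. FGOs came from adult ovaries at 10 to 12 weeks of age, were freed of cumulus cells by washing and were pooled before single oocytes were picked. The mutations are germline alleles, so the somatic cells of those mice carried them too. Only wild-type MII oocytes were labelled. The study's methods give hormone injection of females before MII collection, in the account of in vitro fertilisation, and none for FGOs. The age range given there for those females reaches above that of the FGO females, so stage, injection and age cannot be told apart. The labels do not tie oocytes to females, so p-values measure the spread between oocytes, which may share a mother.

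A growing oocyte makes large amounts of mRNA, then stops transcription and lives on this store until the embryo genome is activated. Most of the store is kept silent by RNA-binding proteins and is translated in order during maturation, when short poly(A) tails are lengthened. ZAR1 and its relative encoded by Zar1l bind stored transcripts and are needed for their accumulation, and ZAR1 gathers them near mitochondria. YBX2, also called MSY2, is the germ-cell Y-box protein that coats mRNA and stabilises it. LSM14B and PATL2 belong to families of repressive ribonucleoproteins known from P-bodies. CPEB1 binds the cytoplasmic polyadenylation element (CPE) in 3′ ends, where it represses and later directs tail lengthening, DAZL promotes translation during maturation, and EIF4E1B is the oocyte form of the cap-binding protein.

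The kit primes on poly(A) tails, and CPEB1 directs tail lengthening at the CPE. The annotated 3′ ends are therefore shown for 3 of the members on which the results turn. In the last 100 bases of 1 annotated transcript a gene (GENCODE M21, GRCm38, the build also called mm10), both CPE forms, TTTTAT and TTTTAAT, and the poly(A) signals AATAAA and ATTAAA were searched on the transcript strand. Windows of 30 bases are printed 5′ to 3′ with the motif in capitals.
Ybx2: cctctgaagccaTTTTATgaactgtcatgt
Lsm14b: aaatgcaaactaAATAAAcattggactctt
Patl2: ggccttgtatttAATAAAagtctaatctgg
The windows lie at chr11:69941532-69941561 on the plus strand, chr2:180035429-180035458 on the plus strand and chr2:122120115-122120144 on the minus strand. All are in the 3′ UTR. Of the 7 members with an annotated 3′ UTR of at least 100 bases, only Ybx2 held a CPE, starting 62 bases before the end, against 19.6% of 12241 tested genes with such a UTR. The other 6 held AATAAA, which Ybx2 did not. The annotated Zar1l transcript has a 3′ UTR of 14 bases, so it was not counted. Over the tested genes, the median log2 fold change from FGO to MII was -0.02 with a CPE and -0.03 without, given as a description.

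In wild-type FGOs 7 of the 8 mRNAs were among the most abundant in the cell. Levels are CPM, a gene's counts as a share of its library total after scaling by TMM, a normalisation that centres most genes, and are not copies per oocyte. Per kilobase of exon length, the scale on which genes can be compared, Lsm14b stood at 389 ± 37.7 CPM per kb (SD, n = 18), the 50th highest of 15784 tested genes. Eif4e1b followed at 291 ± 26.7, Zar1l at 237 ± 33.1, Zar1 at 193 ± 12.3, Ybx2 at 180 ± 11, Dazl at 146 ± 20.8 and Cpeb1 at 146 ± 15.8 CPM per kb. All of these were within the top 211 genes. Each overlapped its neighbour in this order over the 18 oocytes, although Lsm14b was above Eif4e1b in all 18. Patl2 stood apart at 23.5 ± 11.1 CPM per kb, rank 2523, with every oocyte below every Cpeb1 value. Raw counts behind these levels ran from 291 for Patl2 to 27549 for Lsm14b, so counting error is small beside the spread between oocytes.

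Positions are in mm10, as given in the count files. Zar1 (chr5:72576806-72581254) and Zar1l (chr5:150507055-150518164) are both on the minus strand of chromosome 5, and Patl2 (chr2:122120108-122186189, minus) and Lsm14b (chr2:180024987-180035465, plus) share chromosome 2. The others are Ybx2 (chr11:69935796-69941605, plus), Cpeb1 (chr7:81347026-81455465, minus), Dazl (chr17:50279394-50293599, minus) and Eif4e1b (chr13:54783998-54788459, plus). Where annotated genes overlapped Zar1l, Cpeb1 or Patl2, they shared 0 exon bases with them.

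Before the comparisons, the libraries need a word. Total counts ran from 7832458 to 23739871 over the 52 oocytes. By the share of reads mapped in the study's sequencing summary, libraries fell into 2 classes, under 80% and at least 80%. Wild-type FGOs held 8 and 10 of them, Dnmt3L ADD/ADD 0 and 8, Dnmt3a ADD/ADD 3 and 5, the double mutant 8 and 0, and MII oocytes 3 and 7. In wild-type FGOs the classes were replicates 1 to 8 and replicates 9 to 18. There the share of reads mapped cannot be told apart from any other difference between these 2 runs of replicate numbers. Among wild-type FGOs alone, edgeR called 27.6% of genes different between the classes, and 3 of the members were among them: Dazl was lower by 0.33 on the log2 scale in the class of at least 80% (adjusted p = 0.00046), Cpeb1 by 0.18 (0.021) and Zar1 by 0.14 (0.011). Genotype comparisons are therefore given with all wild-type FGOs and within a class. The 10 oocyte markers checked were present in every group, summing to 6396 to 11424 CPM, of which 7 were lower in Dnmt3a ADD/ADD, 6 in Dnmt3L ADD/ADD and 5 in MII oocytes, while 3 were higher in the double mutant. The 12 granulosa and cumulus markers summed to 105 to 197 CPM over all oocytes, with Ptx3 at 0 in every FGO. Of the 10 that were tested, 5 were lower in Dnmt3a ADD/ADD, 2 in Dnmt3L ADD/ADD, 6 in the double mutant and 6 in MII oocytes, and 1, 0, 1 and 1 were higher. Inha, a granulosa gene, had a mean of 9.82 ± 5.58 CPM in wild-type FGOs, 2.62 ± 1.52 in Dnmt3a ADD/ADD, 3.40 ± 1.28 in Dnmt3L ADD/ADD, 0.892 ± 0.444 in the double mutant and 0.142 ± 0.311 in MII oocytes (SD, n = 18, 8, 8, 8 and 10). The gene called higher was Has2, by 1.27 on the log2 scale in Dnmt3a ADD/ADD, 1.39 in the double mutant and 0.92 in MII oocytes. Cyp19a1 and Nr5a2 were called in no comparison. The sum of the 12 had a median of 151 CPM in wild-type FGOs and 113 in MII oocytes, where Inhbb and Amh were at 0. The 10 theca and stroma markers summed to 16.1 to 139 CPM in wild-type FGOs, 11.6 to 51.6 in Dnmt3L ADD/ADD, 5.97 to 98.2 in Dnmt3a ADD/ADD, 2.63 to 5.50 in the double mutant and 2.09 to 11.8 in MII oocytes, and the part of these differences in any result was not tested.

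**Figure D1:**
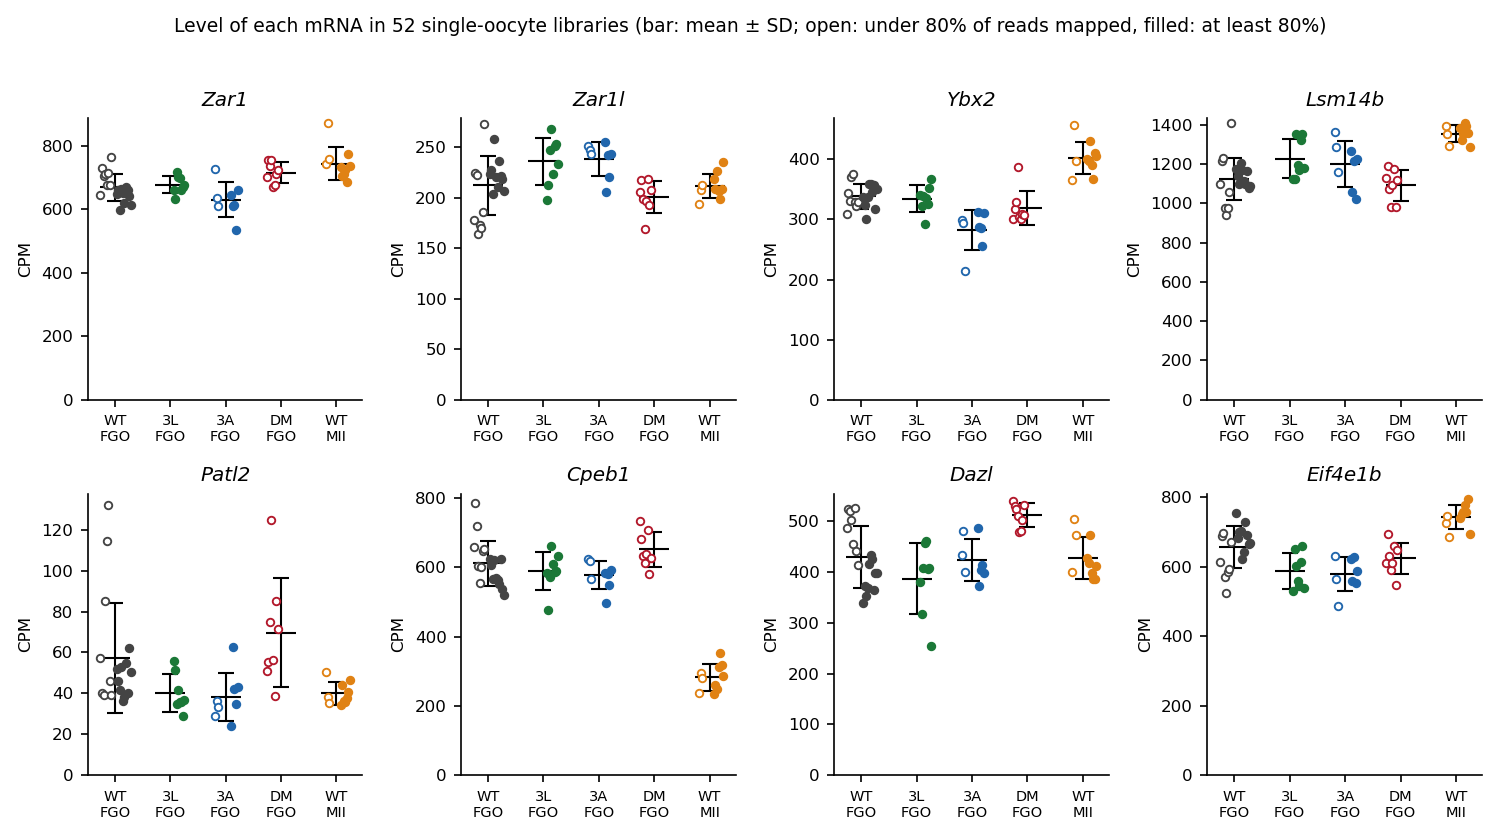
Level of each mRNA in CPM (y axis, from 0) in every library of the 5 groups (x axis; 3L, Dnmt3L ADD/ADD; 3A, Dnmt3a ADD/ADD; DM, double mutant), with the mean and SD as bars. Open points are libraries with under 80% of reads mapped and filled points those with at least 80%. Cpeb1 in the 10 MII oocytes lies below all 42 FGOs, and Patl2 has a few high FGOs of the class under 80%.

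From FGO to MII, Cpeb1 was the member that changed most. In the 18 wild-type FGOs its level ran from 520.0 to 785 CPM with a median of 605, and in the 10 MII oocytes from 233 to 352 with a median of 283. Every MII oocyte was below every wild-type FGO. The mean fell from 611 ± 66.1 to 282 ± 38.7 CPM, a log2 fold change of -1.12 (95% interval -1.24 to -1.0, edgeR adjusted p = 6.9e-22). It was the only member past a 2-fold change, which 9.0% of tested genes passed downwards. Within the class of at least 80% mapped reads the change was -1.02 (adjusted p = 1.4e-10) and within the other -1.26 (2.6e-05), by the same edgeR test.

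The other members moved less. At an adjusted p under 0.05, 4 members were higher in MII oocytes (16.5% of 15784 genes were) and 2 lower (22.6% were). Scaled by library totals alone, 1614 genes were higher and 4305 lower, in place of 2610 and 3560, and 3 and 2 members, Zar1 no longer being called. Ybx2 ran from 302 to 376 CPM in wild-type FGOs (median 337) and from 366 to 457 in MII oocytes (median 399.6). Of the 10 MII oocytes, 8 were above all FGOs. The change was 0.25 on the log2 scale (SE 0.05, edgeR adjusted p = 2.1e-05).

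Lsm14b ran from 942 to 1411 CPM in wild-type FGOs (median 1108) and from 1290.2 to 1412 in MII oocytes (median 1357), a log2 change of 0.27 (SE 0.05, edgeR adjusted p = 7.6e-06). All MII oocytes were above the FGO median, and 17 of 18 FGOs were below every MII oocyte. The MII oocytes were also tight, with a coefficient of variation of 3.14% against 9.69% in wild-type FGOs. Eif4e1b rose by 0.18 (edgeR adjusted p = 0.0017), from 524 to 756 CPM (median 671) to 685 to 795 CPM (median 749.9). Zar1 rose by 0.15 (edgeR adjusted p = 0.0011), from 597 to 765 CPM (median 662) to 687 to 869.9 CPM (median 734). For both, all 10 MII oocytes were above the FGO median while the ranges overlapped.

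Zar1l and Dazl were not called. Zar1l ran from 164 to 274 CPM (median 219.7) in wild-type FGOs and from 193 to 235 (median 209) in MII oocytes, with a log2 change between -0.12 and 0.12 at 95%. Dazl ran from 339.6 to 527 CPM (median 422) and from 385 to 505 (median 414), with an interval of -0.15 to 0.13. Of the pair of ZAR1-type genes, Zar1 made up 45.1% ± 3.69 of their summed level per kb in FGOs and 47.5% ± 2.22 in MII oocytes.

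Patl2 was lower in MII oocytes, running from 34.5 to 50.4 CPM (median 38.1) against 36.4 to 132 in wild-type FGOs (median 48.2). The log2 change was -0.52 (95% interval -0.87 to -0.16, edgeR adjusted p = 0.017). The wide interval comes from the FGOs, whose coefficient of variation was 47.2% against 13.6% in MII oocytes. Within the class of at least 80% mapped reads the change was -0.28 (adjusted p = 0.041), and within the class under 80% it was -0.74 and not called (0.22). In the former class 6 members were called, with 26.5% of all genes, and in the latter, with 3 MII oocytes, Cpeb1 alone, with 10.3% of all genes.

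**Figure D2:**
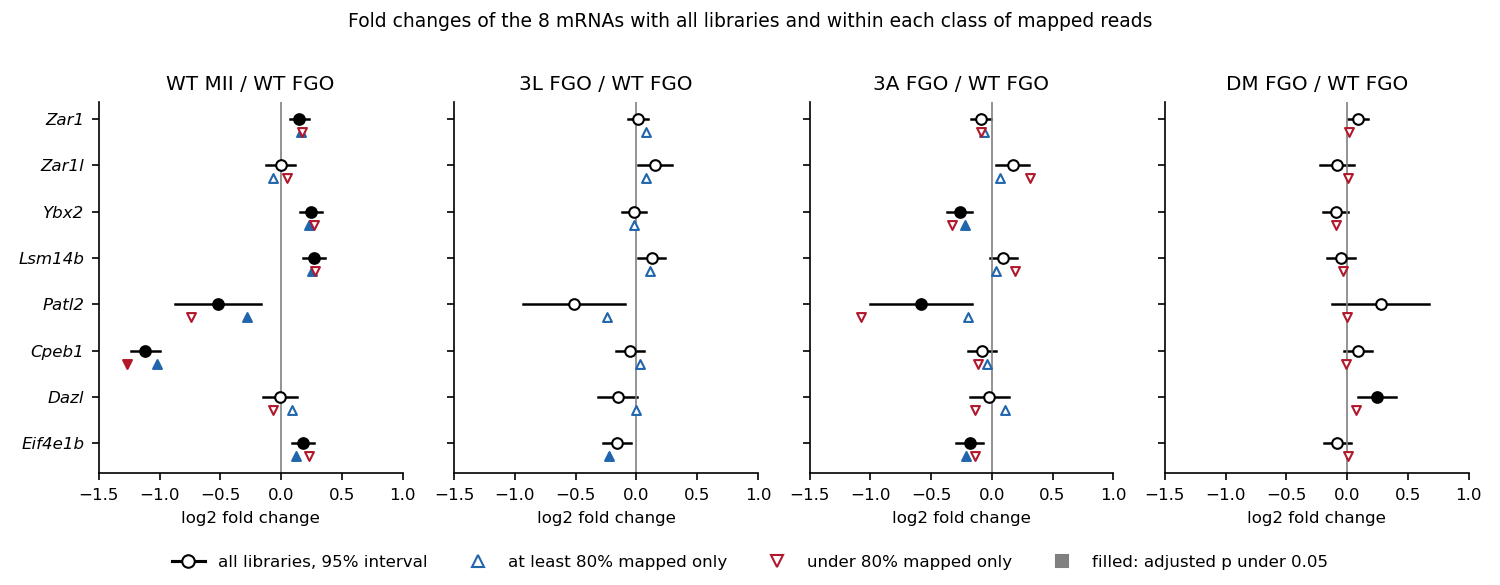
Log2 fold change of each mRNA (x axis) in MII oocytes and in each mutant against wild-type FGOs, as circles with 95% intervals when all libraries enter, and as triangles within a class of mapped reads. Filled symbols passed an adjusted p of 0.05. Cpeb1 stands alone near -1.12 in MII oocytes, and the double-mutant triangles lie between -0.09 and 0.07.

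The fall of Cpeb1 changed the balance of its family. Per kilobase, Cpeb1 made up 74.3% ± 1.69 of the summed Cpeb1 to Cpeb4 level in wild-type FGOs (SD, n = 18) and 55.6% ± 3.56 in MII oocytes (n = 10), and these ranges did not overlap. Cpeb3 rose by 0.25 on the log2 scale (edgeR adjusted p = 4.9e-05) and its share from 10.1% to 19.5%. Cpeb4 stood at 28.9 ± 2.76 and 28.7 ± 1.41 CPM per kb, and Cpeb2 was near 1 CPM per kb in both stages (1.57 ± 1.06 and 1.14 ± 0.28).

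The other members kept the lead they had over their relatives. Lsm14b made up 83.4% and 82.6% of the Lsm14 pair per kb in FGOs and MII oocytes, although Lsm14a rose too, by 0.34 (edgeR adjusted p = 0.00023). Eif4e1b made up 70.5% and 73.0% of the eIF4E family, ahead of Eif4e3 at 22.4% and 20%, while the general cap-binding gene Eif4e was at 5.92% and 5.96%. Ybx2 was 40.7% and 38.8% of the Y-box genes, of which Ybx1 rose by 0.43 (adjusted p = 5.5e-05) and Ybx3 by 0.28 (9.7e-07) by the same edgeR test. Patl2 was 64.3% ± 8.64 and 55.7% ± 3.38 of the Patl pair. Of the 10 paralogs, 6 were called higher in MII oocytes and 0 lower, beside 16.5% and 22.6% of all genes, and Cpeb2, with a fitted change of -0.47, was not called (adjusted p = 0.11).

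**Figure D3:**
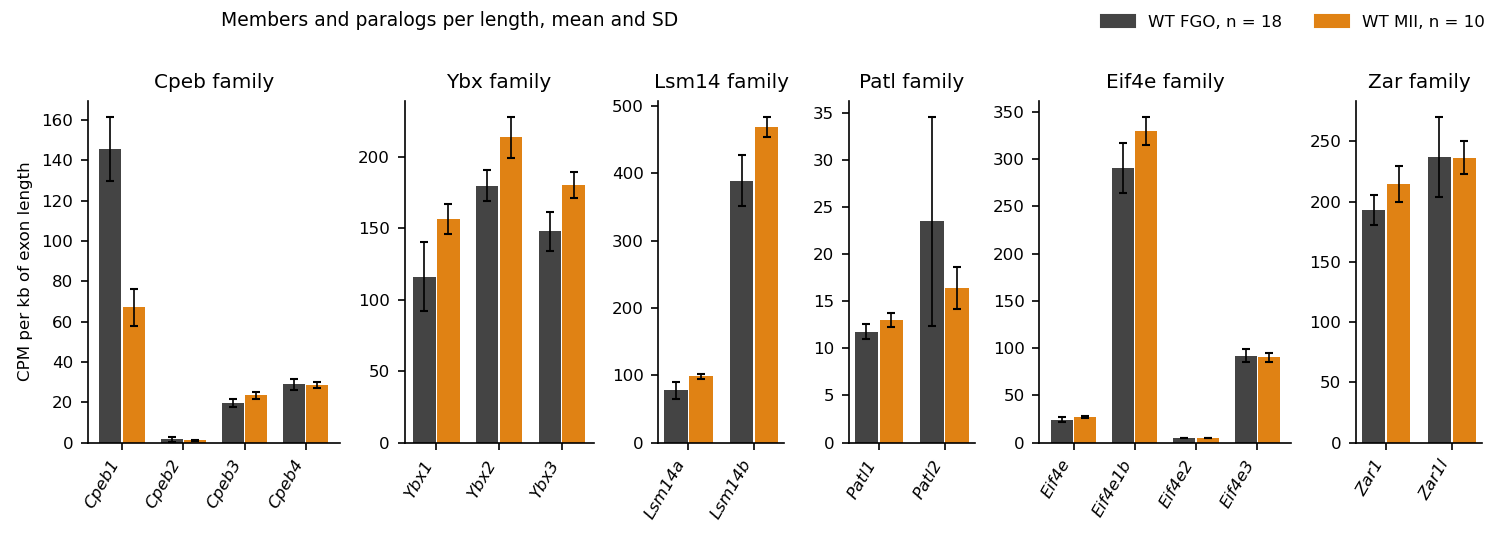
Level per length (CPM per kb of exon length, y axis from 0, its own scale for each family) of the members and their paralogs in wild-type FGOs (grey, n = 18) and MII oocytes (orange, n = 10), as means with SD. The Cpeb1 bar drops from 146 to 67.2 while Cpeb3 and Cpeb4 stay between 19.7 and 28.9.

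In Dnmt3L ADD/ADD FGOs 0 of the 8 members were called against all 18 wild-type FGOs, where edgeR called 3.07% of 15726 genes higher and 3.06% lower. At an unadjusted p under 0.05 there were 4, Zar1l, Patl2, Lsm14b and Eif4e1b, and DESeq2 and edgeR's exact test also called 0 after adjustment. The nearest to the threshold was Eif4e1b, the oocyte cap-binding gene, which ran from 529 to 659 CPM (median 581) against 524 to 756 (median 671) in wild type, with all 8 oocytes below the wild-type median. Its log2 change was -0.16 (edgeR adjusted p = 0.072). Among libraries with at least 80% mapped reads, to which all 8 of these mutants belong, it was -0.22 and called (adjusted p = 0.0037), the only member called there (9.25% of genes were). Leaving out wild-type replicate 5 or mutant replicate 2 also brought it under the threshold, at 0.035 and 0.036.

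In Dnmt3a ADD/ADD FGOs 3 members were called lower, against 7.61% of all genes called lower, and 0 higher, against 8.06%. The clearest was Ybx2. It ran from 214 to 312 CPM with a median of 291, against 302 to 376 and 337 in wild type, and 6 of the 8 oocytes were below all 18 wild-type FGOs. The mean was 282 ± 32.8 against 339 ± 20.7 CPM, a log2 change of -0.26 (95% interval -0.37 to -0.16, edgeR adjusted p = 0.00045). Over the 26 fits that each left out 1 library, the adjusted p stayed between 0.00025 and 0.0014, and within the class of at least 80% the change was -0.22 (0.012). Within the class under 80%, with 3 mutant oocytes, it was -0.33 and not called (0.13). In the other mutants Ybx2 ran from 292 to 367 CPM (Dnmt3L ADD/ADD) and from 301 to 387 (double mutant), and neither was called (log2 changes -0.02 and -0.09).

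Eif4e1b was also lower in Dnmt3a ADD/ADD FGOs, from 486 to 630.0 CPM with a median of 576, and again all 8 oocytes were below the wild-type median. The log2 change was -0.18 (edgeR adjusted p = 0.022), or -0.22 within the class of at least 80% (0.0066). It was -0.14 within the class under 80% (edgeR adjusted p = 0.47), -0.10 against wild-type FGOs under 80% (0.24) and -0.09 with replicate number as a block (0.32), none of them called, and the call was lost without mutant replicate 8 (-0.16, adjusted p = 0.058). The wild-type FGOs that share a replicate number with mutants are those under 80%, so the block largely repeats the setting before it. The class of at least 80% called 2 members, Ybx2 and Eif4e1b, and 9.24% of genes. The class under 80% called 0 members by edgeR, 3 at an unadjusted p under 0.05, and 0.878% of genes. The 2 single mutants were each set against the same wild-type FGOs, so their Eif4e1b values, -0.16 and -0.18, are not independent of each other. In the double mutant the same change was -0.08 (95% interval -0.19 to 0.03) and not called.

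The third call, Patl2, was fragile. In Dnmt3a ADD/ADD FGOs it ran from 24.1 to 62.4 CPM (median 35.4) against 36.4 to 132 in wild type, a log2 change of -0.58 (95% interval -1.0 to -0.16, edgeR adjusted p = 0.048). It was lost in 13 of 26 fits that left out 1 library, at an adjusted p of 0.0504 to 0.112. Those were wild-type replicates 1, 4, 5, 6, 15 and 17 and mutant replicates 1, 2, 3, 5, 6, 7 and 8. Within the class of at least 80% the change was -0.19 (adjusted p = 0.50), and within the class under 80% it was -1.07 and not called (edgeR adjusted p = 0.15). Against wild-type FGOs under 80% it was -0.86 and called (edgeR adjusted p = 0.0093). In Dnmt3L ADD/ADD FGOs Patl2 ran from 28.7 to 55.9 CPM, a change of -0.51 that was not called (0.13).

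In double-mutant FGOs 1 member, Dazl, was called higher and 0 lower, against 5.51% and 6.74% of all genes. Dazl ran from 478 to 540.4 CPM (median 517) against 339.6 to 527 (median 422) in wild type, a log2 change of 0.24 (edgeR adjusted p = 0.034), and 3 of 8 oocytes were above all wild-type FGOs. All 8 double-mutant libraries had under 80% of reads mapped, and the 8 wild-type FGOs of the same class ran from 414 to 527 CPM, a change of 0.07 (0.74). The call was also lost in 8 of 26 fits that left out 1 library (adjusted p 0.0503 to 0.0649), without wild-type replicate 9 or 11 or mutant replicate 1, 2, 3, 4, 7 or 8. Within that class edgeR called 0 members, with 0 also at an unadjusted p under 0.05, and 0.910% of genes, and the fitted changes of the 8 lay between -0.09 for Ybx2 and 0.07 for Dazl.

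For the remaining mRNAs no mutant gave a call against all 18 wild-type FGOs. In Dnmt3L ADD/ADD, then Dnmt3a ADD/ADD, then the double mutant, Zar1 had medians of 674, 624.6 and 716 CPM, against 662 in wild type. Cpeb1 had medians of 589, 582 and 635 CPM against 605, and Lsm14b of 1187, 1221 and 1106 CPM against 1108. Zar1l had medians of 240.4, 243 and 202 CPM against 219.7. The largest fitted change among these genes in any mutant, with all libraries, was 0.17 for Zar1l in Dnmt3a ADD/ADD (95% interval 0.03 to 0.31, edgeR adjusted p = 0.080). It was called without wild-type replicate 8 (0.041), and Zar1 in Dnmt3a ADD/ADD was called without mutant replicate 1 (-0.13, edgeR adjusted p = 0.031). Against wild-type FGOs under 80% alone, Cpeb1 in Dnmt3a ADD/ADD was at -0.18 and called (edgeR adjusted p = 0.034). The numbers of members called under other choices of wild-type FGOs are given in the section on processing.

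Whether the double mutant departed from the sum of the single mutants was tested as a contrast over the 42 FGOs. Of the 8 members 7 were called, 5 higher and 2 lower, where 19.3% of genes were called higher and 16.3% lower. Patl2 had the largest value, 1.37 on the log2 scale (95% interval 0.74 to 2.01, edgeR adjusted p = 0.00091), followed by Dazl at 0.42 and Zar1l at -0.41. Over 42 fits that left out 1 library each, the Zar1 call was lost in 3 (wild-type replicate 4 or 6, or Dnmt3a ADD/ADD replicate 6) and the Cpeb1 call in 7 (wild-type 1 or 4, Dnmt3L ADD/ADD 2, 3 or 6, Dnmt3a ADD/ADD 8 or double-mutant 1), at an edgeR adjusted p of up to 0.0544 and 0.0580. Ybx2, at 0.19 (0.056), was called in 27 of them. All double-mutant libraries were of the class under 80% and all Dnmt3L ADD/ADD libraries of the other, so class and genotype cannot be told apart here by splitting. With class as a term in the fit, 2 members were called, Eif4e1b at 0.40 (adjusted p = 0.0034) and Lsm14b at -0.29 (0.049), and Patl2 was at 1.01 (0.068).

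Patl2 varied most between oocytes of 1 genotype, and other members varied with it. Among wild-type FGOs, replicates 4, 5 and 6 had 85.0, 115 and 132 CPM of Patl2, and the other 15 had 36.4 to 62.4. The same 3 oocytes had the lowest Lsm14b of the 18, at 977, 942 and 976 CPM, where the others had 1056 to 1411. They also had the 3 lowest Zar1l values, at 164, 173 and 170 CPM. All 3 belong to the class under 80%.

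The relation of these genes within each group is given as Pearson's r and Spearman's rho of log2 CPM over single oocytes, which share a normalisation. Lsm14b against Patl2 gave r = -0.85 (rho -0.93) in the 8 wild-type FGOs under 80%, which include the 3 oocytes named above, -0.80 (-0.88) in 8 Dnmt3L ADD/ADD FGOs, -0.86 (-0.88) in 8 double mutants and -0.52 (-0.40) in 8 Dnmt3a ADD/ADD FGOs. Without the 2 oocytes farthest in Patl2, these r values were -0.82, -0.65, -0.78 and -0.17. In the 10 wild-type FGOs of at least 80% and the 10 MII oocytes, where Patl2 varied less, r was -0.29 and -0.17. Zar1l rose with Lsm14b, with r of 0.97, 0.71, 0.88 and 0.87 in the same 4 FGO groups, but r was -0.59 in MII oocytes. Of the 28 pairs of members, 4 had r beyond 0.5 with the same sign in all 4 genotypes, counted with all 18 wild-type FGOs, and these pairs were picked out after the values were seen. They were Lsm14b with Patl2, Zar1l and Eif4e1b, and Zar1l with Patl2. In the 10 wild-type FGOs of at least 80% their r was -0.29, 0.60, 0.16 and 0.38, so Zar1l with Patl2, negative over all 18 (-0.67), turned sign.

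**Figure D4:**
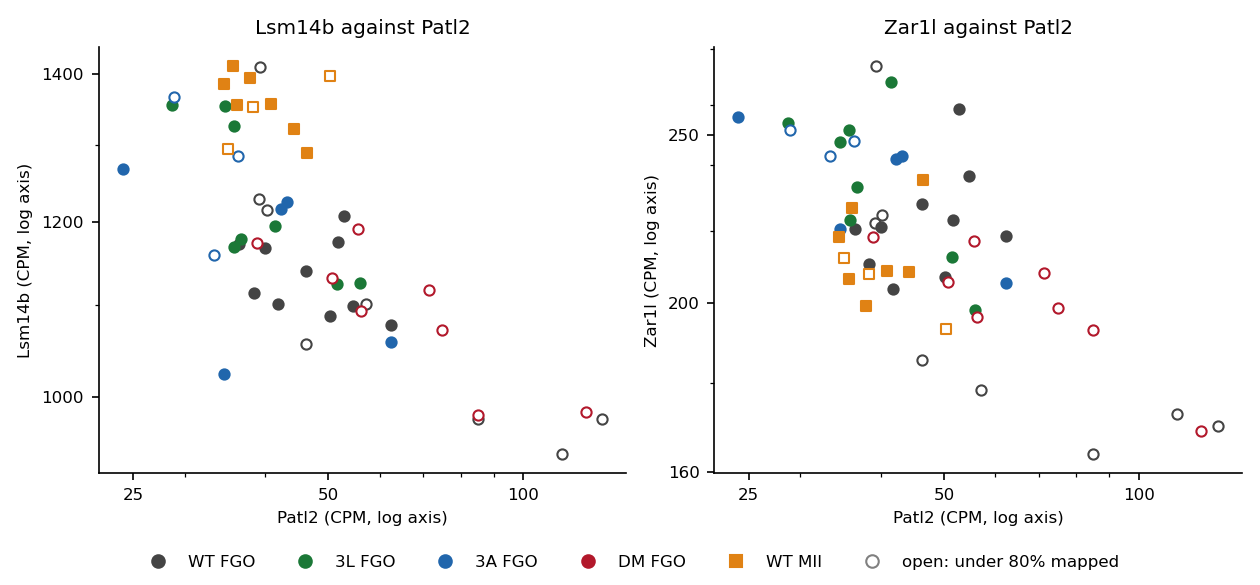
Lsm14b (left) and Zar1l (right) against Patl2 in each of the 52 libraries, in CPM on log axes. Circles are FGOs by genotype, squares MII oocytes, and open symbols have under 80% of reads mapped. Wild-type replicates 4, 5 and 6, at 85.0 to 132 CPM of Patl2, have the lowest Lsm14b of all libraries.

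For each member the most similar genes over the 52 libraries were listed by Pearson's r of log2 CPM, as a description. Cpeb1 was followed most closely by Upp1 (r = 0.97) and Fbxw19 (0.97), and over the 42 FGOs alone these values were 0.59 and 0.67. Patl2 was followed by Ptgfrn (0.94) and Fam98a (0.94), with 0.95 and 0.94 over FGOs. Lsm14b was nearest to Zfp57 (0.92) and Epn2 (0.92), Zar1l to Kif22 (0.88) and Stard13 (0.87), and Eif4e1b to Csnk1e (0.88) and Tubb4b (0.83). Zar1 was nearest to Uchl1 (0.84) and Zbed3 (0.80), Ybx2 to Gm11512 (0.82) and Gm29216 (0.79), and Dazl to Fbxl5 (0.78) and Btf3l4 (0.75).

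The wider pathway was read from 70 genes listed by role, of which 69 were tested. From FGO to MII 22 (31.9%) were higher and 11 (15.9%) lower, beside 16.5% and 22.6% of all genes. Their median log2 change was 0.03, beside -0.05 over all genes. Within the class of at least 80% mapped reads the counts were 15 and 10, beside 11.7% and 14.7% of all genes, so that the lower count was near the background. Within the other class they were 5 and 1, beside 4.09% and 6.19%.

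Of 16 genes of the poly(A) tail machinery 7 were higher and 2 lower. The noncanonical poly(A) polymerases Papd7 (Tent4a) and Papd5 (Tent4b) each rose by 0.29 on the log2 scale (edgeR adjusted p = 2.5e-06 for Papd5). Pabpc1, the cytoplasmic poly(A)-binding protein of somatic cells, fell by 1.503 (SE 0.22, edgeR adjusted p = 4.7e-07), and its fall was present in both classes (-1.20 and -1.85, both called). The fitted fall was larger than that of Cpeb1 (-1.12, SE 0.06), but the difference between them was not tested.

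Of 21 repression and storage partners 7 were higher and 6 lower. Igf2bp2, an mRNA-binding protein that stabilises transcripts, rose by 0.28 (edgeR adjusted p = 4.7e-06). Fmr1, an RNA-binding repressor of translation, fell by 0.63 (adjusted p = 0.00022) in the same test. Ddx6 and Edc3, P-body partners of PATL2 and LSM14B type proteins, were named after their values were seen. They fell by 0.86 (edgeR adjusted p = 0.0048) and 1.32 (0.0043), but within the class of at least 80% by 0.39 (0.041) and 0.95 (0.054, not called). On the same list Eif4enif1 rose by 0.16 (edgeR adjusted p = 0.00054), and Edc4, at 0.01, was not called (0.90). Of 11 mRNAs reported as CPEB1 or DAZL targets 1 was lower, Tex19.1, which fell by 0.27 (edgeR adjusted p = 0.0011), and 0 were higher. Of 11 tested cap-binding and initiation genes 2 were higher and 2 lower.

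**Figure D5:**
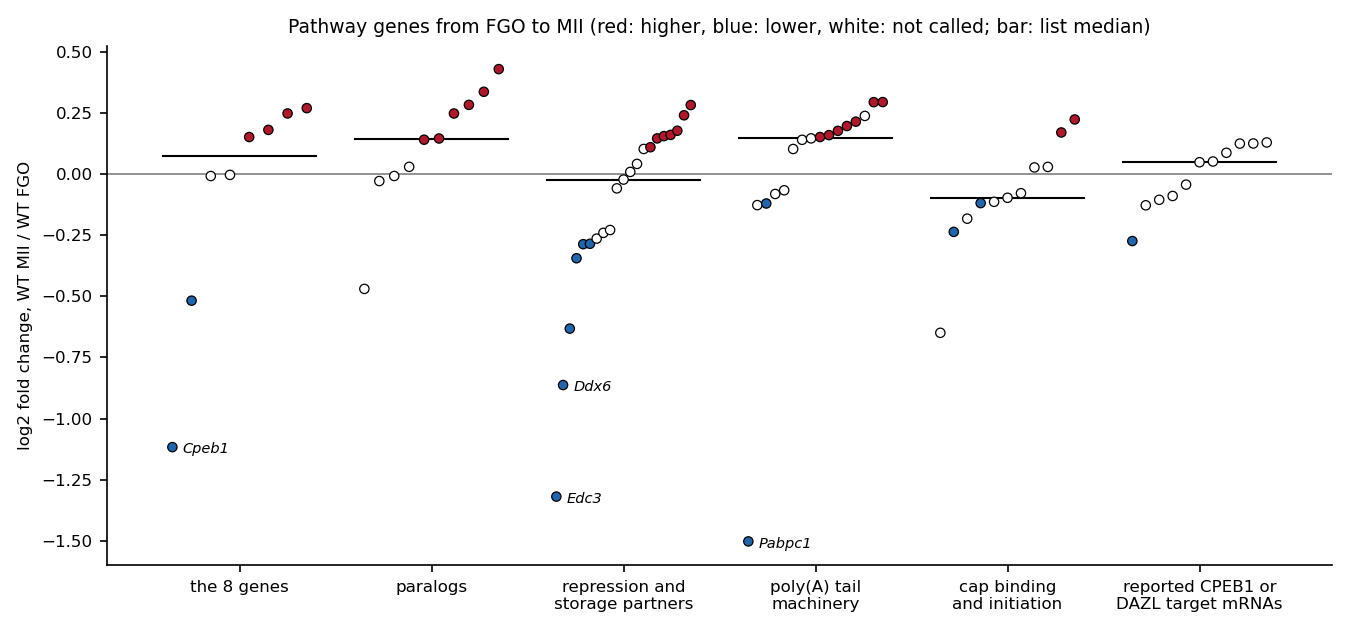
Log2 fold change from wild-type FGO to MII (y axis) of each tested gene in the 8 members and the 5 pathway lists (x axis), ordered by value within a list, with a bar at the list median. Red and blue points passed an adjusted p of 0.05 upwards and downwards, and Cpeb1, Ddx6, Edc3 and Pabpc1 are named because they fell by more than 0.8.

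The same lists were read by genotype. Dnmt3a ADD/ADD FGOs had 8 higher and 8 lower of 69, or 11.6% each, beside 8.06% and 7.61% of all genes. The higher were led by Cirbp, a cold-inducible RNA-binding protein (0.36, edgeR adjusted p = 1.7e-05), the decapping scaffold gene Edc4 (0.25), the polyadenylation factor gene Cpsf4 (0.30) and Patl1 (0.23), the paralog of Patl2. The lower were led by Pabpc1 (-1.19, edgeR adjusted p = 0.00096), Tex19.1 (-0.33), G3bp2 (-0.17) and Eif4g2 (-0.19). Within the class of at least 80%, 2 were higher and 4 lower, beside 5.14% and 4.09% of all genes, and Pabpc1 was at -0.70 and not called (edgeR adjusted p = 0.0999). Within the class under 80%, 2 were higher (Edc4 and Cirbp) and 1 lower, beside 0.41% and 0.468% of all genes, the lower being Pabpc1 at -1.87 (edgeR adjusted p = 0.043). Of the genes named here, Cirbp was called in both classes and Eif4g2 in that of at least 80% (edgeR adjusted p = 0.012). Edc4 was not called in the latter (0.11), and Cpsf4, Patl1, Tex19.1 and G3bp2 were called in neither class.

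Dnmt3L ADD/ADD FGOs had 3 higher (Cirbp, Cpsf4 and Edc4) and 4 lower (Eif4e2, Tex19.1, G3bp2 and Eif4e3) of 69, or 4.35% and 5.80%, beside 3.07% and 3.06% of all genes. Eif4e2, a cap-binding repressor and paralog of Eif4e1b, fell by 0.27 (edgeR adjusted p = 0.0026) and Eif4e3 by 0.15 (0.036). Both were also called lower in Dnmt3a ADD/ADD FGOs, by 0.18 (adjusted p = 0.022) and 0.17 (0.010), against the same wild-type oocytes. Within the classes of at least and under 80%, the Eif4e2 change in Dnmt3a ADD/ADD was -0.07 (edgeR adjusted p = 0.57) and -0.35 (0.11), neither called, and that of Eif4e3 -0.22 (0.0013, called) and -0.09 (0.64). Against wild-type FGOs of at least 80% alone, 7 of the 69 were called higher and 7 lower, beside 5.15% and 4.09% of all genes.

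The double mutant had 3 higher (Zfp36l2, Ccnb1 and Mknk2) and 7 lower of 69, or 4.35% and 10.1%, beside 5.51% and 6.74% of all genes. The lower were led by Pabpn1, Cpsf3, Ybx1 and Eif4g3. Against the wild-type FGOs of its own class edgeR called 0 higher and 0 lower, with 2 at an unadjusted p under 0.05, beside 0.175% and 0.735% of all genes called.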

How the data were processed

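RNA-seq libraries were each made from a single oocyte with a poly(A)-primed full-length kit. The authors deposited raw read counts per gene for each library, made by aligning paired reads to mm10 with STAR and counting them with featureCounts (HTSeq is also named). The annotation release, the strand setting and the handling of reads that map to several places are not given in the sources used here. Counts of the 52 oocyte libraries were used as deposited, and 3 embryo libraries were not used here. No library duplicated another, the chi-square per degree of freedom being at least 5.02 between libraries of a group.

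Counts were fitted with edgeR 4.0.16 in R 4.3.3 (quasi-likelihood test after TMM scaling, low genes removed by filterByExpr at a minimum of 10 counts), for all 42 FGOs together (15726 genes) and for all 52 oocytes (15784 genes). A gene was called at a Benjamini-Hochberg adjusted p under 0.05 over all genes tested. The study used edgeR with an adjusted p under 0.05 and a fold change over 2, and named an exact test for its plot of embryo alleles. Here edgeR's exact test was run as an alternative, as was DESeq2 1.42.0. The fold threshold of 2 was not required for a call. With all libraries no member called in a mutant passed it, the largest change being -0.58 for Patl2 in Dnmt3a ADD/ADD. Correlations between members used log2 CPM without a prior count. Those with the most similar genes, and of Patl2 with pathway genes, used log2 CPM with a prior count of 2. The script was tested on simulated data. Class of mapped reads was taken from the study's sequencing summary, and the comparison of classes among wild-type FGOs was added after seeing the data.

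The members and gene lists were chosen with earlier results of these data known. From the pathway lists, up to 4 called genes with the lowest p in each direction and every paralog were open to naming, and for each member the 2 genes most correlated with it. Reads counting as shares of a library, a change in a level can reflect the gene, the rest of the RNA pool or, with poly(A) priming, tail length, which cannot be told apart. The 3′ ends were read from GENCODE M21 transcripts. A sequence window and a pathway gene that the rules above would show are not reported here.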

Additional observations from a re-analysis of the deposited data

Results flagged for a closer look

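Among the 32 combinations of a member and a group of 8 to 10 oocytes, 2 held a highest value that stood far from the rest. Chance flags about 5% of such combinations. Zar1 was at 869.9 CPM in MII replicate 5, where the next oocyte had 773 and the median was 734. Ybx2 was at 387 CPM in double-mutant replicate 4, where the next had 328 and the median was 308.

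For 7 members the double mutant departed from the sum of the single mutants (edgeR quasi-likelihood test, Benjamini-Hochberg adjusted). Over all genes 19.3% were called higher and 16.3% lower by this contrast. On the log2 scale the values were 0.16 for Zar1, -0.41 for Zar1l, 0.22 for Cpeb1, 0.42 for Dazl, 1.37 for Patl2, -0.27 for Lsm14b and 0.26 for Eif4e1b. With class of mapped reads as a term, only Eif4e1b and Lsm14b were called. The double mutant and Dnmt3L ADD/ADD were each of a single class, and the part of class in these values cannot be told apart from genotype by splitting the libraries.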

How the results depend on the processing

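Limits came mainly from class of mapped reads, from the 18 wild-type FGOs that all genotype comparisons share, and from oocytes whose mothers are not labelled. Of the log2 fold changes of members under the alternatives, 447 kept direction and side of the threshold, 26 passed it, 47 lost it and 32 changed sign, and none of those 32 was called with all libraries. The cause of these changes was not tested.

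From FGO to MII, 6 members were called, and 1 within the class under 80%, which has fewer libraries, while leaving out 1 library at a time gave 6 throughout. Zar1 lost its call under library totals alone, under the replicate block and against wild-type FGOs under 80%, and Patl2 against those of at least 80%. In Dnmt3L ADD/ADD FGOs, 0 were called, but 1 under library totals, with class as a covariate, with wild-type FGOs of at least 80% and within that class, and 3 with wild-type FGOs under 80% (leave-one-out 0 to 1). In Dnmt3a ADD/ADD FGOs, 3 were called, 1 with no filter, 5 with wild-type FGOs under 80%, and 0 within that class (leave-one-out 1 to 4). In the double mutant, 1 was called, 0 with no filter, with class as a covariate, with wild-type FGOs under 80% and within that class, and 6 with wild-type FGOs of at least 80% (leave-one-out 0 to 1). For the non-additive contrast, 7 were called, 2 with class as a covariate and 4 with wild-type FGOs of at least 80% (leave-one-out 5 to 8). Calls over all genes also changed with the setting and are given below, so these member counts are not by themselves particular to the members.

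Replicate numbers did not pair the oocytes. Correlations of same-numbered deviations ran from -0.54 to 0.32, -0.086 to 0.38, -0.69 to 0.55 and -0.18 to 0.14 in Dnmt3L ADD/ADD, Dnmt3a ADD/ADD, double-mutant and MII oocytes, and 0, 2, 0 and 0 oocytes matched their own number best. With the replicate block, 3, 4, 0, 5 and 6 members were called in the Dnmt3L ADD/ADD, Dnmt3a ADD/ADD, double-mutant, MII and non-additive comparisons, and over all genes 2830, 4109 and 227 in the 3 mutants.

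The log2 changes that turned were these. In Dnmt3L ADD/ADD, Zar1 was at -0.011 (library totals), -0.051 (replicate block) and -0.053 (wild type under 80%), Ybx2 from -0.041 to 0.0054 leaving out 1 library, Cpeb1 at 0.016 (covariate), 0.030 (wild type at least 80%) and 0.027 (that class only), and Dazl at 0.00030 (wild type at least 80%). In Dnmt3a ADD/ADD, Cpeb1 was at 0.00098 (wild type at least 80%) and Dazl at 0.0071 (covariate), 0.13 (wild type at least 80%) and 0.10 (that class only). In the double mutant, under the block, wild type under 80% and that class only, Zar1l was at 0.020, 0.010 and 0.0073, Cpeb1 at -0.0053, -0.0049 and -0.0085, and Eif4e1b at 0.011, 0.011 and 0.0069, with Patl2 at -0.0027 in that class. In MII, Zar1l was at 0.011 (no filter), 0.061 (block), 0.10 (wild type under 80%) and 0.048 (that class only), and from -0.021 to 0.029 leaving out 1 library. Dazl was at 0.010 (no filter), 0.031 (covariate), 0.16 (wild type at least 80%) and 0.087 (that class only), and from -0.037 to 0.023 leaving out 1 library.

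Over all genes, Dnmt3L ADD/ADD had 964 calls, 467 with no filter, 3344 with wild type under 80% and as few as 584 leaving out 1 library. Dnmt3a ADD/ADD had 2465, 4377 with wild type under 80%, and 1392 and 137 within the classes of at least and under 80%. The double mutant had 1926, 1101 with only its 2 groups, 1184 with no filter, 410 with the covariate, 217 and 5799 with wild type under and at least 80%, 130 within its class and 1181 to 2954 leaving out 1 library. Of the 8 members, 6 were called beside those 5799 genes, 3 beside the 3344 and 5 beside the 4377. MII had 6170, and 3790 and 1589 within the classes. The non-additive contrast had 5601, and 2226 with the covariate. Under library totals, 39 of 40 group means of members moved by less than 1 SD, Lsm14b in MII being at 1311 in place of 1356 CPM.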

Other observations

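Patl2 was the member with most spread among wild-type FGOs, and other genes of translation control varied with it. Over the 18 wild-type FGOs, 27 of 69 pathway genes (39.1%) had a correlation of log2 CPM with Patl2 beyond 0.7 in either direction, beside 19.7% of all 15783 other genes, as a description over oocytes that share a normalisation. Eif4ebp2, the gene of an inhibitor of translation initiation (r = 0.92), the helicase gene Ddx6 (0.90) and Cpeb2 (0.87) were high where Patl2 was high. Lsm14a (-0.88) and the poly(A) polymerase gene Papolg (-0.85) were low there. Without the 2 oocytes highest in Patl2 these values were 0.84, 0.79, 0.73, -0.63 and -0.77. Most of the 27 genes were then no longer beyond 0.7, such as Parn (-0.82 to -0.48) and Khdrbs1 (0.80 to 0.61). The share over all genes was not computed without these 2 oocytes. The oocytes highest in Patl2 all had under 80% of reads mapped, and the part of class in this pattern was not tested.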
